A study of Saccharomyces cerevisiae with 15 samples.

Results

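The genes described here encode 8 cell wall mannoproteins of budding yeast, out of 7127 gene identifiers counted in each library. They are DAN1 (YJR150C), DAN4 (YJR151C), TIR1 (YER011W), TIR2 (YOR010C), TIR3 (YIL011W), TIR4 (YOR009W), CWP1 (YKL096W) and CWP2 (YKL096W-A). They were chosen by name, with earlier results of these same libraries known, so the calls made for them below are a description and not independent evidence that the family stands apart. All 8 passed the filter on low counts in every fit, though some did so only through libraries of old cells, as described with the processing. Each is a protein-coding gene with 1 uninterrupted coding segment in the R64 annotation.

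Messenger RNA and ribosome footprints, the mRNA stretches protected by translating ribosomes, had been sequenced from 2 strains at 2 ages. The cth2Δ strain lacks TIS11 (also CTH2), the gene of an RNA-binding protein that acts on AU-rich mRNA ends when iron is low, and was derived from the wild type, UCC8773, a Mother Enrichment Program strain in which estradiol stops daughters from dividing. Old cells were taken after 30 h and young cells after 2 h in YPD with 1 uM estradiol at 30 C. All groups shared pre-growth with nourseothricin and hygromycin B, biotin labelling, transfer into cold YPD and capture on magnetic beads, whereas the longer culture alone received fresh medium on the way. Age in divisions and time in culture therefore differ together between old and young cells and cannot be told apart. Each of the 8 groups of strain, age and assay held 2 libraries, except mRNA of old cth2Δ cells with 1. The labels do not say that libraries of a group came from separate cultures, so p-values measure the spread between these libraries, which may be technical.

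The proteins belong to the class that is anchored through a glycosylphosphatidylinositol lipid and then linked to the glucan of the wall. In laboratory yeast, CWP1 and CWP2 are known as the mannoproteins of aerobic cells, and the DAN and TIR genes as their counterparts when oxygen is scarce. The DAN and TIR genes are known to be repressed in air by Rox1 and Mot3 and switched on by the zinc cluster factor Upc2, which also serves sterol genes. TIR1 and TIR2 were also described as cold shock genes.

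The DNA upstream of the genes carries matches to the motifs of those factors, so 4 promoters are printed before the values. They are 300 bases up to the start codon on the coding strand, read from the R64 genome: chrX:709708-710007 for DAN1 (minus strand), chrX:715741-716040 for DAN4 (minus), chrXV:344035-344334 for TIR4 (plus) and chrXV:346951-347250 for TIR2 (minus). Capitals mark 7-letter matches on either strand to the anaerobic element AR1 (TCGTTTA or TCGTTCA) or to the sterol element SRE (TCGTATA), both known as Upc2 motifs. DAN1, DAN4 and TIR4 are shown because their footprints differed most between ages. TIR2 is shown because it is the least abundant in footprints of old wild-type cells. These 4 are also the only DAN and TIR promoters with such a match within 300 bases. Those of TIR1, TIR3 and CWP1 hold none there, and 13.1% of 6001 promoters of that length hold such a match.
DAN1: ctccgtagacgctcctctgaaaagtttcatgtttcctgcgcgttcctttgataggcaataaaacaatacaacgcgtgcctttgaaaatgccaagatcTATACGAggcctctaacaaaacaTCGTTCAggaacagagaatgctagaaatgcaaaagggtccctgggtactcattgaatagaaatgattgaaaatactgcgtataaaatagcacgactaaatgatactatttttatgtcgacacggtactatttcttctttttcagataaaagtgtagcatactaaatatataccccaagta
DAN4: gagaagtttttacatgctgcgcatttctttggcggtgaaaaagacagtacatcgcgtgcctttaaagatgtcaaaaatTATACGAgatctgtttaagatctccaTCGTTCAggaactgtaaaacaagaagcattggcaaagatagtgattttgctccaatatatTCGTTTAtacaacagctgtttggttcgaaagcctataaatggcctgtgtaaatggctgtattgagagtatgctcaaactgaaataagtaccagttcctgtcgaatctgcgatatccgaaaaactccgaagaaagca
TIR4: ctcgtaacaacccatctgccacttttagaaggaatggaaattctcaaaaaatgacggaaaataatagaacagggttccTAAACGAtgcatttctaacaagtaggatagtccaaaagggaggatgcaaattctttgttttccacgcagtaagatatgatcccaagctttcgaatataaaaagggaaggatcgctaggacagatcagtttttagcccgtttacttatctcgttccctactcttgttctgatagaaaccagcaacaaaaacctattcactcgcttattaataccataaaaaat
TIR2: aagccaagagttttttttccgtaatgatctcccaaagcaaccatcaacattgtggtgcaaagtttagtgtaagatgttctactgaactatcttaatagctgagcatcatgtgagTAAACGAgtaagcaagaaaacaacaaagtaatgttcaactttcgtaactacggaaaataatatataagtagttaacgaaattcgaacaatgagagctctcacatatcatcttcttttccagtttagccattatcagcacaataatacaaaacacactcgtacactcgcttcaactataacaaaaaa
DAN1 and DAN4, which lie side by side, share a stretch of 100 aligned bases in these windows with 73.0% identity (blastn). In both, an SRE match on the opposite strand is followed by an AR1 match with C. They stand 203 and 180 bases before the start codon in DAN1, and 222 and 196 bases before it in DAN4.

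Over the longer window of 600 bases, each of the 6 DAN and TIR promoters held at least 1 of these 3 motifs, as did that of CWP1, against 23.5% of 5999 protein-coding promoters of that length. More than 1 such match was found in 4 of the 6 DAN and TIR promoters (DAN1, DAN4, TIR1 and TIR3) and not in that of CWP1, against 3.63% of all. The core of the Rox1 motif, ATTGTT on either strand, is common and was present in 6 of 6 DAN and TIR promoters, in that of CWP1 and in 54.9% of all. None of these searched motifs overlaps another in these promoters. Cth2 binds AU-rich RNA, and TATTTAT on the coding strand within 300 bases after the stop codon was found for DAN1, 66 bases after it, and for no other member, against 17.0% of 5997 genes. A letter match is not evidence of binding.

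**Figure D1:**
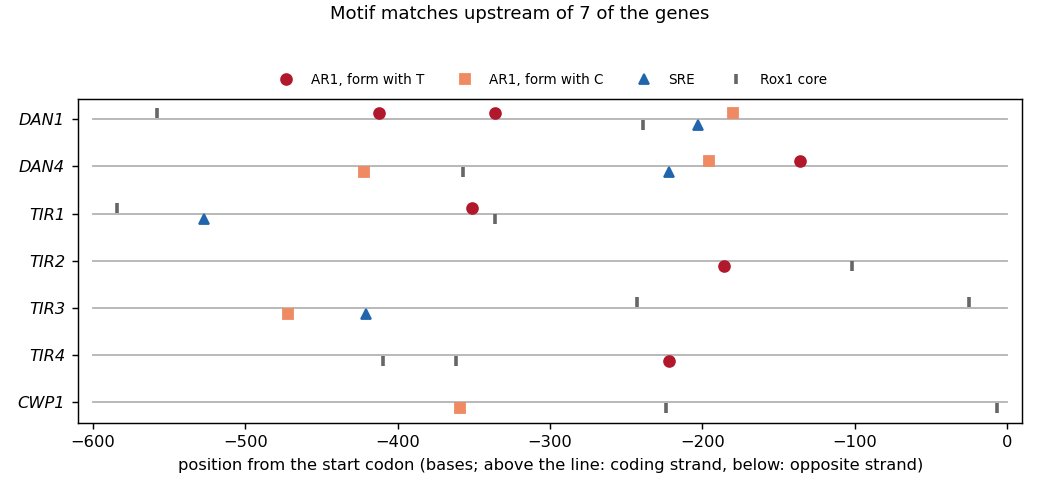
Matches to AR1 (circles and squares), SRE (triangles) and the Rox1 core (bars) within 600 bases upstream of the start codon of 7 members. The x axis is the distance from the start codon in bases, and marks above a line lie on the coding strand. DAN1 holds 4 AR1 or SRE matches and DAN4 holds 4, whereas TIR2, TIR4 and CWP1 hold 1 each.

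Total counts ranged from 1629345 to 6198680 per library, so 3 counts correspond to 0.484 to 1.84 CPM, counts scaled to library size. The deleted gene TIS11 had 1 to 17 counts in cth2Δ libraries and 28 to 516 in wild-type ones. Per total counts this is 0.291 to 6.31 CPM in cth2Δ and 5.83 to 133 CPM in wild-type libraries, ranges that overlap only between an old cth2Δ footprint library and young wild-type mRNA, and within each age and assay every cth2Δ library was below every wild-type one. Libraries of a young group differed by 48.3 to 68.8 times counting noise (chi-square per degree of freedom over genes), and those of an old group by 3.27 to 6.76 times. Repeats lie inside the coding sequences of DAN4, TIR4 and TIR1: 26.6%, 23.7% and 15.7% of their 28-base words occur more than once within the gene itself. How reads from such repeats were counted is not given, and their part in the values below was not tested. For TIR1, 18.3% of the 28-base words occur more than once in the whole genome, so some lie outside the gene. The closest match of a member to another coding sequence, over at least 20% of its length, was CWP2 to TIR1. It had 85.7% identity over 84 bases.

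DAN1 showed the largest mRNA difference between old and young wild-type cells of all 5991 genes tested. Its mRNA was counted 276 and 199 times in the old wild-type libraries, against 2 and 0 times in the young ones. The summed counts differ 230-fold after scaling (exact 95% interval of counting 63.2 to 1901), and edgeR fitted a log2 difference of 7.64 (SE 0.57) at an adjusted p of 0.00596. Because the young counts are so few, the fitted value depends on the constant added before taking logs. In bulk samples such as these, fewer cells of a type and less RNA per cell cannot be told apart, which holds for each result below.

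TIR4 mRNA was counted 655 and 465 times in old wild-type libraries, or 152 and 127 CPM, against 22 and 37 times, or 6.91 and 8.18 CPM, in young ones. The 2 groups lay far apart, and the fitted log2 difference was 4.19 (SE 0.22; edgeR adjusted p = 0.00247). TIR1 stood at 283 and 206 CPM in old wild-type mRNA, against 10.7 and 24.3 CPM in young. The young libraries differed from each other by more than the old ones did in ratio, and edgeR gave 3.78 (SE 0.44) on the log2 scale, at an adjusted p of 0.0195. TIR3, a further wall mannoprotein of the TIR group, had 158 and 138 CPM in old wild-type cells, against 17.6 and 29.0 CPM in young ones. On the log2 scale TIR3 differed by 2.66 (SE 0.31, edgeR adjusted p = 0.0193). DAN4 mRNA was present at both ages, with 39.6 and 43.8 CPM in old wild-type cells against 15.7 and 13.9 CPM in young ones. Its rise was the smallest of the called members, at 1.49 on the log2 scale (SE 0.23, edgeR adjusted p = 0.0476).

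The remaining 3 members did not pass the test in wild-type mRNA. TIR2 had 19.4 and 16.4 CPM in old cells against 8.17 and 4.86 CPM in young cells, groups that do not overlap, at a log2 fold change of 1.48 (SE 0.36) and an edgeR adjusted p of 0.123. CWP1 had 158 and 179 CPM in old cells against 114 and 132 CPM in young cells (log2 fold change 0.46, edgeR adjusted p = 0.238). CWP2 had 2296 and 1981 CPM in old cells against 1594 and 1763 CPM in young cells (0.35, edgeR adjusted p = 0.399). In all, 5 of 8 members were called higher in old wild-type mRNA, where 0.868% of genes were. The median log2 fold change was 2.08 over the members and -0.0049 over all genes tested. With 1 library fewer, edgeR called fewer members: 2 without the first young library, 3 without the second, and 1, TIR4, without either old library, though all 8 fold changes kept their sign.

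**Figure D2:**
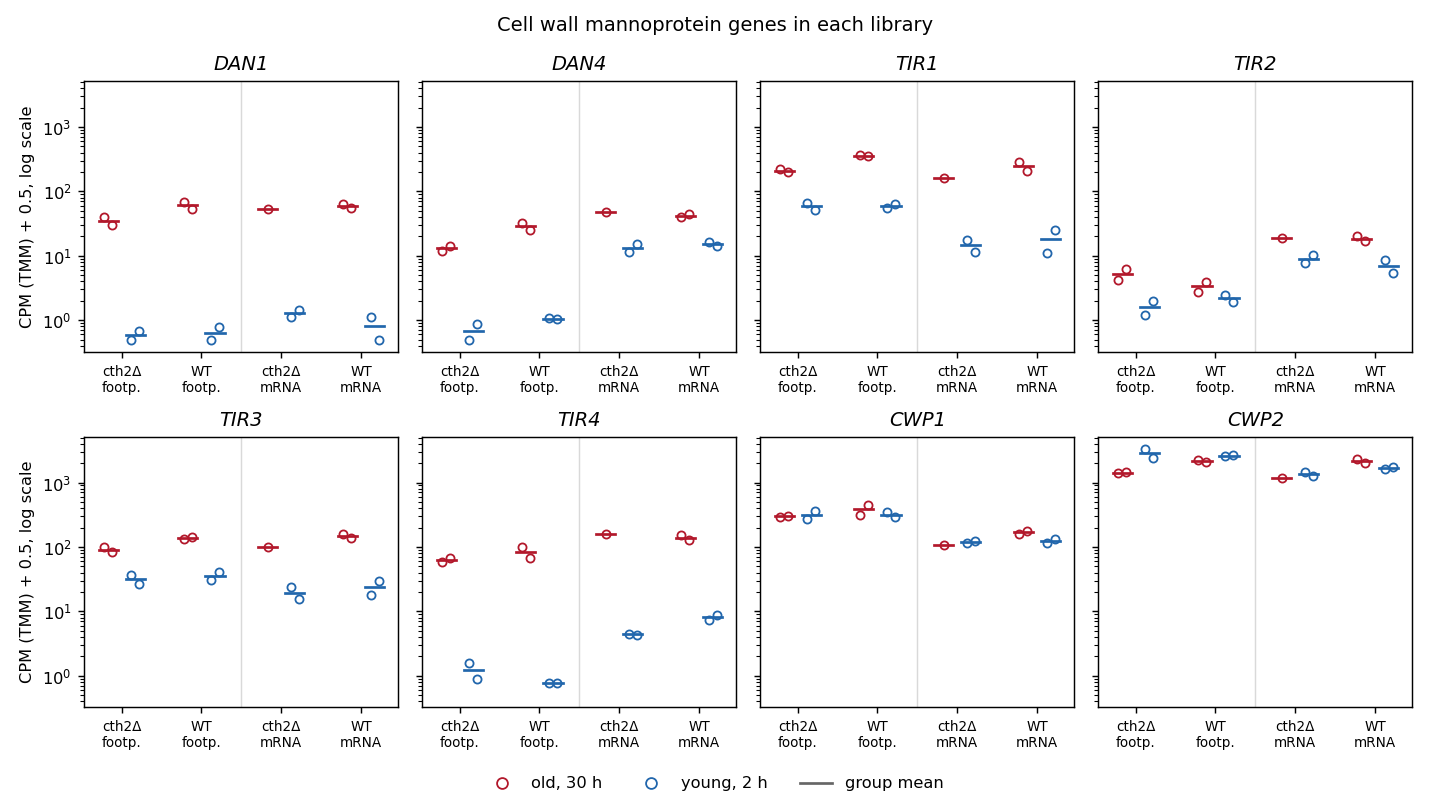
Level of each gene in every library, as TMM-scaled CPM plus 0.5 on a log axis, with old libraries in red left of young ones in blue and a bar at the group mean. DAN1 and TIR4 footprints reach 30.1 to 66.8 and 57.3 to 100 CPM in old cells and stay at or below 1.06 CPM in young cells, while CWP1 and CWP2 lie above 100 CPM in every library.

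Footprints of old wild-type cells showed the same 5 genes higher, and the separation was widest for DAN1, TIR4 and DAN4. DAN1 footprints were counted 322 and 237 times in old wild-type libraries, against 0 and 1 times in young ones, a scaled ratio of 432 (exact 95% interval 77.2 to 17079) that edgeR fitted as 8.44 on the log2 scale (SE 0.52, adjusted p = 0.00107). TIR4 footprints were counted 483 and 291 times in old libraries, against 1 and 1 in young ones. The scaled counts of TIR4 differ 299-fold (exact 95% interval 82.4 to 2472), and edgeR fitted 8.05 on the log2 scale (SE 0.46, adjusted p = 0.00107). DAN4 footprints were counted 152 and 109 times in old libraries, against 2 and 2 in young ones, a ratio of 50.4 (interval 19.4 to 186) and 5.57 on the log2 scale (SE 0.43, edgeR adjusted p = 0.00196). For these 3 genes, the young libraries held at most 2 footprints each.

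TIR1 and TIR3 already had clear footprints in young cells. TIR1 stood at 365 and 354 CPM in old wild-type footprints, against 55.6 and 62.4 CPM in young ones (log2 fold change 2.61, SE 0.18, edgeR adjusted p = 0.00129). TIR3 stood at 133 and 143 CPM in old footprints, against 29.6 and 40.7 CPM in young ones (1.97, SE 0.23, edgeR adjusted p = 0.00954). TIR3 missed the threshold when either old library was left out, which left 4 of 8 members called.

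TIR2, in contrast to its mRNA, was rare in footprints at both ages. It was counted 11 and 15 times in old wild-type libraries, against 7 and 5 times in young ones, with an edgeR adjusted p of 0.4. CWP1 footprints were at 314 and 454 CPM in old wild-type cells against 342 and 292 CPM in young cells, so the groups overlap (log2 fold change 0.27, edgeR adjusted p = 0.478). CWP2 footprints were at 2255 and 2056 CPM in old cells against 2579 and 2634 CPM in young cells, lower in both old libraries but not past the test (-0.27, SE 0.19, edgeR adjusted p = 0.407). In total 5 of 8 members were called higher in old footprints of the wild type, where 2.02% of 5308 genes were.

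In cth2Δ cells the DAN and TIR genes were also higher in old footprints, all 6 of them. DAN1 was counted 75 and 96 times in old cth2Δ libraries, against 0 and 1 in young ones (log2 fold change 7.78, SE 0.54, edgeR adjusted p = 0.000922). TIR4 was counted 109 and 212 times in old cth2Δ libraries, against 3 and 2 in young ones (6.55, SE 0.41, edgeR adjusted p = 0.000917). DAN4 was counted 22 and 44 times in old ones, against 0 and 2 in young ones (5.53, SE 0.52, edgeR adjusted p = 0.0024). These 3 genes again had almost no footprints in young cells, and the scaled ratios of old to young counts were 272 for DAN1 (exact 95% interval 48.1 to 10787), 102 for TIR4 (43.2 to 316) and 52.4 for DAN4 (13.9 to 442). TIR1 stood at 222 and 197 CPM in old cth2Δ footprints against 65.8 and 50.7 CPM in young ones (1.85, SE 0.18, edgeR adjusted p = 0.00254). TIR3 stood at 98.3 and 82.1 CPM in old cth2Δ footprints against 36.4 and 26.0 CPM in young ones (1.54, SE 0.23, edgeR adjusted p = 0.0115). TIR2 had 7 and 18 counts, or 3.68 and 5.64 CPM, in old cth2Δ footprints against 2 and 8 counts, or 0.71 and 1.52 CPM, in young ones, and its call rests on those few counts (1.96, SE 0.52, edgeR adjusted p = 0.0437). CWP2 went the other way: it stood at 1396 and 1454 CPM in old cth2Δ footprints against 3327 and 2366 CPM in young ones (-0.998, SE 0.19, edgeR adjusted p = 0.0207). CWP1 did not separate, with 293 and 302 CPM in old cells against 268 and 359 CPM in young ones.

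Thus 6 members were called higher in old cth2Δ footprints, where 9.16% of genes were, and 1 was called lower, where 8.06% of genes were. The TIR2 call was lost without any 1 of the 4 cth2Δ footprint libraries, which left 6 members called without either young library. The TIR3 and CWP2 calls were lost as well without either old library, which left 4. The calls of TIR2 and CWP2 were also lost when cth2Δ footprints were fitted without wild type, with log2 fold changes of 1.97 for TIR2 and -0.99 for CWP2.

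The single mRNA library of old cth2Δ cells allows no test. Against the mean of the young cth2Δ libraries, the log2 difference was 5.31 for DAN1 (163 counts, against 2 and 3 in young) and 5.14 for TIR4 (490 counts, against 13 and 12 in young). For DAN1 the scaled ratio of counts was 66.6 (exact 95% interval 27.9 to 208). The log2 difference was 3.46 for TIR1, 2.38 for TIR3, 1.83 for DAN4 and 1.097 for TIR2. These 6 genes were above a difference of 1, as were 11% of all genes in that comparison. CWP1 stood at -0.16 and CWP2 at -0.22.

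**Figure D3:**
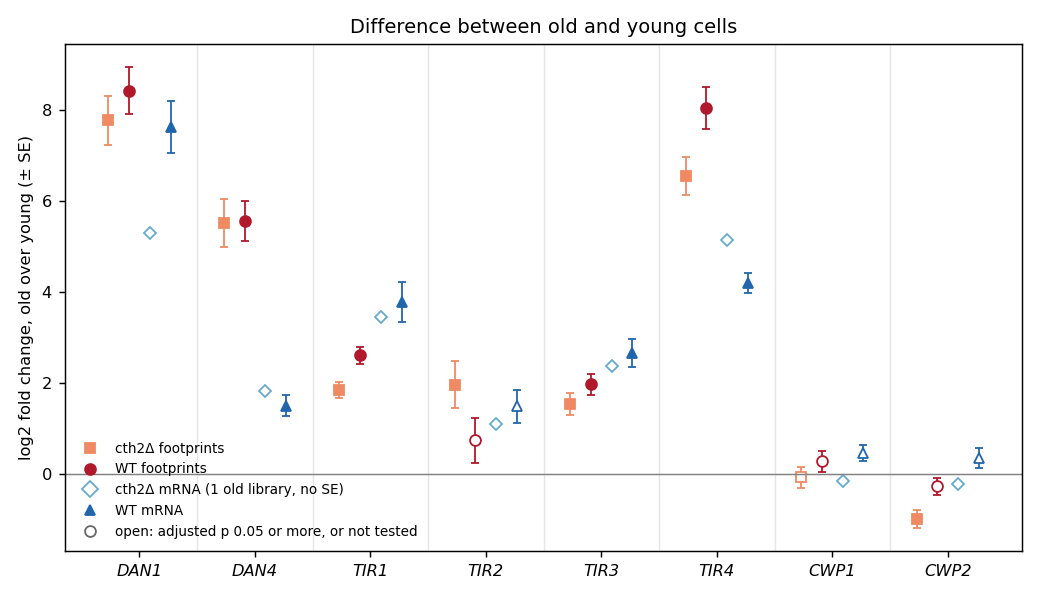
Log2 fold change of old over young cells for each gene, with the approximate SE as bars. Filled symbols passed an edgeR adjusted p of 0.05, and the single old cth2Δ mRNA library has no error. DAN4 and TIR4 stand higher in footprints than in mRNA, whereas TIR1 and TIR3 stand lower in footprints than in mRNA.

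Per kilobase of coding sequence, CWP2 was the most abundant member in every group, with a mean of 7726 CPM per kb in old and 9343 in young wild-type footprints. These are percentiles 99.9 and 99.8 of the gene identifiers with a count in any library. In old wild-type footprints CWP1 followed at 533, TIR1 at 470, TIR3 at 170, DAN1 at 67.1, TIR4 at 56.7, DAN4 at 8.06 and TIR2 at 3.75 CPM per kb. In this order CWP1 (436 and 630 CPM per kb) and TIR1 (477 and 463) overlap between their libraries, as do DAN1 (74.4 and 59.8) and TIR4 (68.4 and 45.0). In young wild-type footprints the order was CWP2, CWP1 at 441, TIR1 at 77.1, TIR3 at 43.4 and TIR2 at 2.23 CPM per kb, with TIR4, DAN4 and DAN1 at 0.19, 0.16 and 0.16. The last 3 rest on 1 to 4 counts over both libraries and cannot be ordered. In old cth2Δ footprints TIR1 (291 and 257 CPM per kb) was below CWP1 (406 and 420), while in old wild-type mRNA TIR1 (370 and 269) was above CWP1 (219.96 and 248), as it was in the single old cth2Δ mRNA library (207 and 147). In young cells TIR1 was below CWP1 in every library of both assays and strains.

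The balance between the 2 kinds of wall protein differed between ages. The 6 DAN and TIR genes took 20.4% to 22.6% of the members' counts in old wild-type libraries of either assay and 18.4% to 29.4% in old cth2Δ libraries, against 2.81% to 4.06% in all young libraries. Their summed level was 395 to 716 CPM in old libraries and 55.3 to 106 CPM in young ones. The summed level of CWP1 and CWP2 differed less, and its direction depended on the assay and strain. In wild-type mRNA it was 2454 and 2159 CPM in old cells against 1707 and 1895 CPM in young ones. In wild-type footprints it was 2569 and 2509.85 CPM in old cells against 2921 and 2927 CPM in young ones. In cth2Δ footprints it was 1689 and 1756 CPM in old cells against 3595 and 2725 CPM in young ones, and in the single old cth2Δ mRNA library it was 1277 CPM against 1593 and 1383 CPM in young ones. Old libraries thus lay above young ones in wild-type mRNA and below them in the other 3 settings, with no overlap within a setting, and this sum was not tested.

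Footprints and mRNA came from aliquots of the same lysates, so footprints per mRNA (a ratio of scaled CPM) could be followed lysate by lysate. DAN4 had 1.18 and 0.83 footprints per mRNA in old wild-type lysates, against 0.051 and 0.060 in young ones. Those young lysates held 50 and 63 counts of DAN4 mRNA but 2 and 2 footprints. TIR4 had 0.98 and 0.76 footprints per mRNA in old lysates, against 0.058 and 0.051 in young ones, where 22 and 37 mRNA counts stood beside 1 and 1 footprints. In this ratio both genes stood at percentiles 35.7 to 63 of all genes in old wild-type lysates, against 4.53 to 6.78 in young wild-type ones.

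Tested in 1 model of both assays, with translational efficiency as the footprint change beyond the mRNA change, DAN4 was called higher in old wild-type cells (log2 difference 4.10, SE 0.50, edgeR adjusted p = 0.0135), 1 of 4 genes or 0.0661% called so. TIR4 reached 3.90 (SE 0.61) with an edgeR adjusted p of 0.0512. With the lysate as a block, edgeR called both higher (adjusted p = 3.24e-07 for DAN4 and 3.97e-05 for TIR4), where 3.64% of genes were. Without that block the DAN4 call did not survive the loss of any library but the second old footprint library, whose removal left both genes called (adjusted p = 0.0353 for each in edgeR). Its log2 difference stayed between 3.91 and 4.27 under those removals. In young wild-type cells, 159 of 5314 protein-coding genes with at least 50 mRNA counts had at most 4 footprints, and of these 6 had at least 50 footprints in old cells. Those limits were set after the values of DAN4 and TIR4 were seen, and the other 4 genes are SET4, NFT1, FRE5 and PBI1. In cth2Δ lysates DAN4 had 0.36 footprints per mRNA in the old one, against 0 and 0.037 in the young ones. These are percentiles 15.5, against 2.15 and 3.24. TIR4 had 0.53 in the old cth2Δ lysate, against 0.38 and 0.14 in the young ones, which held 3 and 2 footprints. Its percentiles were 23.5, against 23.4 and 12, so the wild-type shift of TIR4 was not seen to that extent in cth2Δ.

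TIR1 ran the opposite way. It had 1.91 and 2.53 footprints per mRNA in old wild-type lysates, against 7.45 and 3.83 in young ones, which are percentiles 99.4 and 97.7 of all genes. The cth2Δ lysates gave 2.03 when old, against 5.52 and 6.49 when young. TIR3 had 1.24 and 1.52 in old wild-type lysates against 2.41 and 2.09 in young ones, and CWP2 had 1.46 and 1.53 in old ones against 2.32 and 2.23 in young ones. For all 3 genes every old lysate of either strain was below every young one. None of them passed the test without the block (log2 difference -1.16, -0.68 and -0.61 for TIR1, TIR3 and CWP2). With the lysate as a block, all 3 were called lower in old cells (edgeR adjusted p = 0.000454, 0.0358 and 0.00902), where 3.16% of genes were.

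CWP1 had the highest ratio of any member in old lysates, with 2.94 and 3.74 footprints per mRNA in old wild-type cells against 4.31 and 3.31 in young ones, groups that overlap. TIR2 was low throughout, with 0.17 and 0.30 in old wild-type lysates against 0.35 and 0.43 in young ones, or percentiles 8.6 to 22.8 of all genes. Of its 28-base words, 2.6% occur elsewhere in the genome. DAN1 gave 1.55 and 1.45 in old wild-type lysates, and in young ones 0 to 2 counts per assay allow no ratio to be read.

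**Figure D4:**
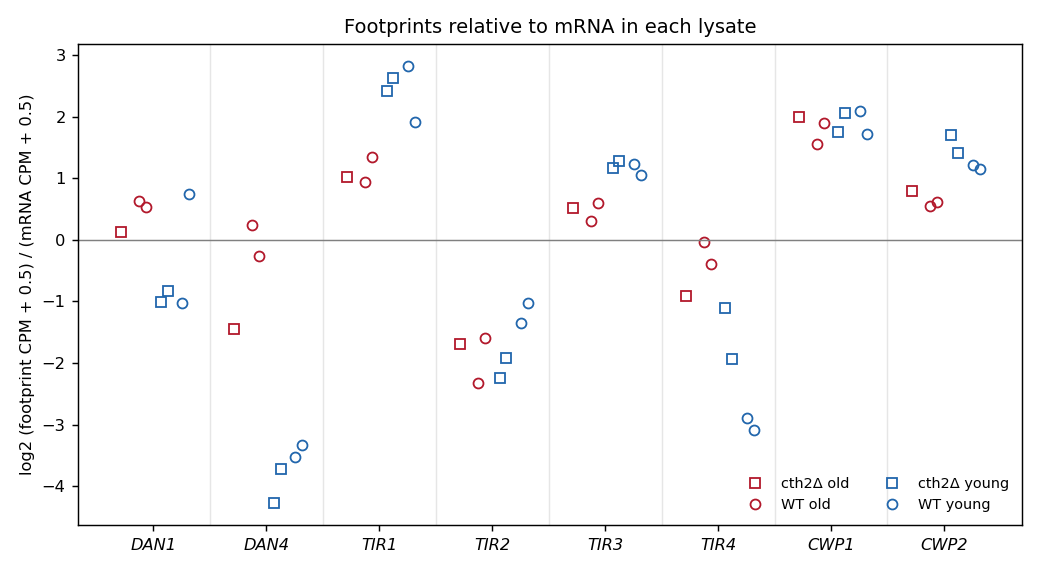
Footprints relative to mRNA in each lysate, as log2 of the CPM ratio with 0.5 CPM added to both, with old lysates in red left of young ones in blue, cth2Δ as squares and wild type as circles. DAN4 and TIR4 lie lower in young lysates, whereas TIR1, TIR3 and CWP2 lie higher in them. In cth2Δ, TIR4 stands at -0.91 when old against -1.11 and -1.94 when young, where it had 3 and 2 footprints.

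Between strains, no member was called in young cells by edgeR or DESeq2. In young mRNA edgeR called 0 genes (0%), with 99 at an unadjusted p under 0.05, among them 1 member, TIR4, at 4.02 and 3.81 CPM in cth2Δ cells against 6.91 and 8.18 CPM in wild type (log2 fold change -0.95). In young footprints edgeR again called 0 genes (0%), with 92 at an unadjusted p under 0.05 and no member among them. DESeq2 called 0 genes in young mRNA and 1 in young footprints, and no member in either. For translational efficiency in young cells, edgeR called 0 genes (0%), with 107 at an unadjusted p under 0.05 and no member among them, and DESeq2 called 0.

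In old footprints the members had lower means in cth2Δ than in wild-type cells, except TIR2, but no gene was called in the fit of all 8 footprint libraries (0%, with 270 at an unadjusted p under 0.05, 5 of them members; DESeq2 called 22 genes and no member). DAN4 had 11.6 and 13.8 CPM in old cth2Δ footprints against 31.5 and 24.7 CPM in old wild-type ones, which is -1.14 on the log2 scale (SE 0.29, edgeR adjusted p = 0.54). DAN1 had 39.4 and 30.1 CPM in old cth2Δ against 66.8 and 53.7 CPM in old wild-type footprints (-0.80, SE 0.27). TIR1 had 222 and 197 CPM in old cth2Δ against 365 and 354 CPM in old wild-type footprints (-0.78, SE 0.17). All 3 genes were separated between the strains, and so was CWP2, with 1396 and 1454 CPM in old cth2Δ against 2255 and 2056 CPM in old wild-type footprints (-0.60, SE 0.19). TIR3 had 98.3 and 82.1 CPM in old cth2Δ footprints against 133 and 143 CPM in old wild-type ones (-0.61, SE 0.22). The groups do not overlap for any of these 5 genes, and the lowest edgeR adjusted p among them was 0.497. The groups of CWP1, lower in cth2Δ, and of TIR2, higher in cth2Δ, do not overlap either, whereas those of TIR4 do. The share of all genes separated in this way is not given here. The differences of TIR4 (-0.42, SE 0.25), CWP1 (-0.37, SE 0.23) and TIR2 (0.76, SE 0.45) were closer to their SEs than those of the 5 genes.

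Fitted on the 4 old footprint libraries alone, where the young libraries no longer set the spread, the same 5 genes were called lower in cth2Δ cells (edgeR adjusted p = 0.00161 for DAN4, 0.0029 for DAN1 and for TIR3, 4.4e-05 for TIR1 and 0.000404 for CWP2), as were 4.04% of 5252 genes. Beside this stands a list of 12 genes known to be expressed in daughter cells. All 12 had lower footprints in old cth2Δ cells, with a median log2 fold change of -1.02, and 12 of 12 were called lower in the fit of the old libraries alone. Their summed level was 882 and 1037 CPM in old cth2Δ footprints against 1916 and 2048 CPM in old wild-type ones. Of 23 other wall protein genes, 10 were called lower and 1 higher in that fit. The part of daughter-cell RNA in the members' strain difference was not tested. In the 1 mRNA library of old cth2Δ cells, DAN1, DAN4, TIR2 and TIR4 were within 0.18 of wild type on the log2 scale, and TIR1, TIR3, CWP1 and CWP2 were at -0.61, -0.57, -0.66 and -0.86.

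**Figure D5:**
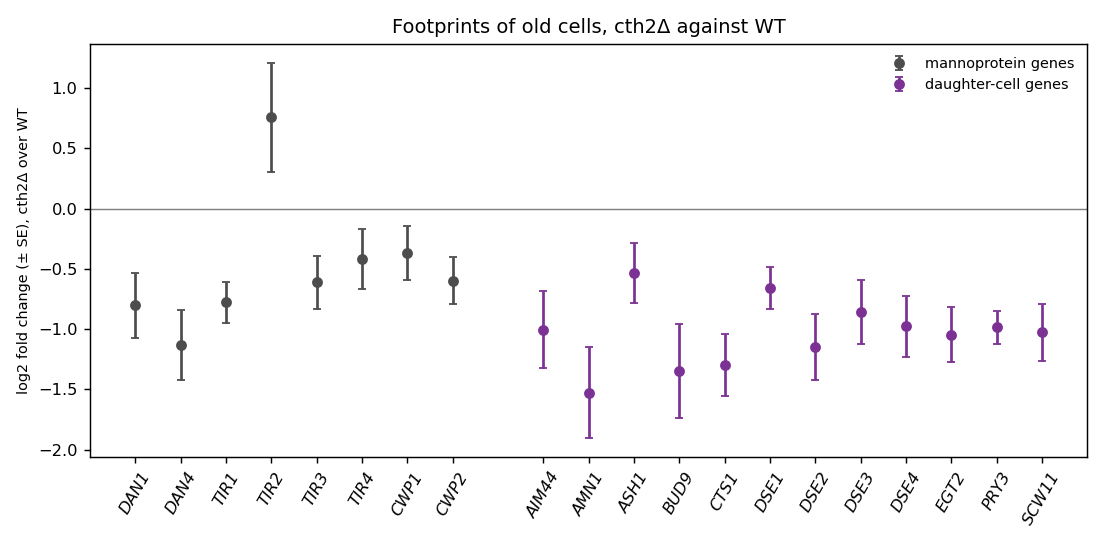
Log2 fold change of old cth2Δ over old wild-type footprints with the approximate SE, for the 8 mannoprotein genes (grey) and 12 daughter-cell genes (purple). All are below 0 except TIR2, and none passed the test in the fit of all footprint libraries.

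Whether the footprint response to age differed between strains was tested as an interaction. edgeR called it for 0 genes (0%), with 152 at an unadjusted p under 0.05, among them the members TIR1 at -0.76 (SE 0.24) and CWP2 at -0.72 (SE 0.27). DESeq2 called 4 genes and no member. With replicate numbers crossed in young cells, an alternative chosen after seeing the data, edgeR called 185 genes, among them TIR1 (-0.75, adjusted p = 0.00375) and CWP2 (-0.70, adjusted p = 0.00124). That crossing was drawn from these same counts and no label gives it, so its p-values are not support for a strain difference. Under the other alternatives the adjusted p of TIR1 and of CWP2 was 0.744 to 1. For TIR1 this compares a log2 age difference of 1.85 in cth2Δ cells with 2.61 in wild type. For DAN1, DAN4 and TIR4, whose young counts were 0 to 3, the interaction had SEs of 0.68 to 1.82 and could not show a difference between strains of that order.

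Regulators of genes that respond to oxygen, heme or sterol, among them those known to control the DAN and TIR genes, were looked at as a list of 10. In old wild-type mRNA none was called, and UPC2, encoding the activator, stood at 58.6 and 61.3 CPM in old cells against 27.96 and 32.3 CPM in young ones (log2 fold change 0.99, SE 0.19, edgeR adjusted p = 0.0773). In old wild-type footprints 1 of 10 was called higher (2.02% of all genes), HAP1, which encodes a heme-responsive activator, at 0.82 (SE 0.14, edgeR adjusted p = 0.0324). In cth2Δ footprints HAP1 was again higher (0.78, edgeR adjusted p = 0.0163) and CYC8, encoding a general co-repressor subunit, lower (-1.13, SE 0.14, edgeR adjusted p = 0.00674). These are 1 of 10 in each direction, where 9.16% of all genes were called higher and 8.06% lower. ROX1, which encodes the hypoxic repressor, stood at 0.78 in wild-type mRNA and 0.24 in both strains' footprints, without passing the test. MOT3, the gene of its partner, was between -0.26 and -0.04 in these 3 comparisons.

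Of 15 other genes known to be induced when oxygen or sterol is scarce, 1 was called higher in old wild-type mRNA (0.868% of all genes), 3 in old wild-type footprints (2.02% of all genes) and 3 in old cth2Δ footprints (9.16%). The genes called lower were 0, 1 and 3 (0.0835%, 0.961% and 8.06% of all genes). AUS1, encoding a sterol importer, was at 153 and 147 CPM in old wild-type mRNA against 27.6 and 37.8 CPM in young (2.19, SE 0.23, edgeR adjusted p = 0.0126). Its footprints had log2 fold changes of 3.43 in wild type and 3.37 in cth2Δ (edgeR adjusted p = 0.00107 and 0.000917). HES1, an oxysterol-binding protein gene, had 45 and 36 footprints in old wild-type libraries against 0 and 0 in young ones, and ANB1, the hypoxic form of the translation factor eIF5A, had 111 and 102 CPM in old wild-type footprints against 24.6 and 33.7 CPM in young ones. These 3 were the called higher genes of the list in old footprints of either strain, and OLE1, the fatty acid desaturase gene that hypoxia is known to induce, was called lower in both (-1.15 in wild type and -0.87 in cth2Δ). CYC7 and SCM4 were also called lower in cth2Δ footprints. The median of the list was 0.39 in wild-type mRNA, 0.42 in wild-type footprints and 0.16 in cth2Δ footprints, against medians of all genes within 0.01 of 0.

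Among 23 other wall protein genes, TIP1, a relative of the TIR genes, went against the DAN and TIR genes. It had 574 and 573 CPM in old wild-type footprints against 1596 and 1331 CPM in young ones (-1.35, SE 0.17, edgeR adjusted p = 0.011). In cth2Δ footprints TIP1 was lower as well (-1.29, edgeR adjusted p = 0.00718), with CCW12, CIS3, ECM33, GAS1, GAS3, PIR1, PST1 and SED1, so that 9 of 23 were called lower, where 8.06% of all genes were, and 1, PIR3, higher, where 9.16% were. In wild-type mRNA, PIR3 (2.55, edgeR adjusted p = 0.0296) and CRH1 (1.42, edgeR adjusted p = 0.0497) were called higher, where 0.868% of all genes were, and none lower. These last 2 are also among 12 genes of the cell wall integrity pathway, of which no others were called in wild-type mRNA. In cth2Δ footprints 6 of the 12 daughter-cell genes were called lower in old cells (8.06% of all genes), and in wild-type footprints none was. The part of daughter-cell RNA in the fall of CWP2 in cth2Δ footprints was not tested.

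The members lie in 5 places of the genome, and the values of the genes around them differ by place. TIR4 (chrXV:344335-345798, plus strand) and TIR2 (chrXV:346195-346950, minus strand) converge with 396 bases between them, and AUS1 starts 2728 bases beyond TIR2 on the other side. In this row TIR4 and AUS1 were called higher in old wild-type mRNA and footprints while TIR2, between them, was not. DAN1 (chrX:708811-709707, minus) and DAN4 (chrX:712255-715740, minus) are 2547 bases apart with no annotated gene between them. Their neighbours BAT2, YJR149W and DAL5 were not called in wild-type mRNA or in footprints of either strain. TIR3 (chrIX:333727-334536, plus) lies next to DOT5, which did not differ (0.14 in wild-type mRNA and -0.07 in wild-type footprints), and near the sterol importer gene PDR11 (1.40 in wild-type footprints, edgeR adjusted p = 0.114). Between PDR11 and TIR3 lies YIL012W, at 2.36 in wild-type mRNA (SE 0.83, edgeR adjusted p = 0.201) and not tested in footprints. TIR1 (chrV:175248-176012, plus) follows YER010C, whose footprints were called higher in old wild-type cells at 1.23 (edgeR adjusted p = 0.0289). CWP2 (chrXI:259253-259531, plus) and CWP1 (chrXI:261132-261851, plus) run in the same direction, 1600 bases apart.

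Across the 8 footprint libraries, the log2 CPM of DAN1, DAN4, TIR1, TIR3 and TIR4 moved together, with Pearson correlations of 0.96 to 0.99 between pairs. TIR2 correlated with them at 0.67 to 0.80, CWP1 at 0.18 to 0.33 and CWP2 at -0.59 to -0.74. The libraries fall into old and young sets, so these values mostly restate the age difference and carry no test. Outside the family, among the 4596 genes that averaged 10 CPM or more, those most like TIR4 were AUS1 (0.99), YMR317W (0.99) and PBI1 (0.99), and PBI1, AUS1 and the seripauperin gene PAU5 led for DAN1 (0.99 each). OST4, encoding a small oligosaccharyltransferase subunit, led for TIR1 (0.998) and TIR3 (0.99). For DAN4 the closest gene was NCE101 (0.98), for TIR2 CDC34 (0.99), for CWP1 ERG26 (0.91) and for CWP2 GAS1 (0.97), the gene of a wall glucan remodelling enzyme.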

How the data were processed

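Messenger RNA and ribosome footprints were sequenced in 15 libraries. Per the file headers, the deposited files give, for each of 7127 gene IDs, its length and its raw count, of which 6047 matched R64. The deposited counts are whole numbers with no normalisation. The submitters' processing notes name cutadapt 3.4, Bowtie 1.1.2, STAR 2.7.9a and build R64. The counting program, its use of strand and its treatment of reads with several places are not given in the sources used here, so reads of overlapping genes cannot be assigned with certainty.

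The counts were fitted with edgeR 4.0.16 in R 4.3.3: TMM scaling, filterByExpr, glmQLFit with the robust option, and a design of group means. Fits held 7 mRNA libraries (5991 genes), 8 footprint libraries (5308 genes) or all 15 (6050 genes), and p-values were adjusted over all genes of a comparison by Benjamini-Hochberg, with calls at 0.05. In all 9 comparisons were tested. DAN1 in every fit, and DAN4, TIR2 and TIR4 in the footprint fit, had so few young counts that they passed the filter through old libraries. For these genes the filter itself favoured a higher level in old cells. SEs were derived from the log2 fold change and the F statistic and are approximate. CPM values are counts scaled by TMM library size. Ratios of summed counts carry exact 95% intervals, which, like the floor of 3 counts, cover counting error only. Translational efficiency is the interaction of assay and age or strain. Per the labels, both assays used aliquots of a lysate, and differences between lysates 1 and 2 correlated between assays in the 3 groups with 2 lysates of both (0.779 and 0.826 in young wild type and cth2Δ, 0.175 in old wild type), so the lysate was treated as pairing the assays. Simulated counts were used to test the fits. Alternatives were RLE scaling, DESeq2 1.42.0, no filter, replicate blocks, fits of the compared groups alone and leaving out libraries.

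The members, lists and alternatives were chosen with earlier results of these data known. Members were always named, and from each list called genes with up to 3 of the highest and 3 of the lowest fold changes, annotation neighbours, and the non-members of highest Pearson correlation in footprints. UPC2, ROX1, MOT3, PDR11, the wall genes other than TIP1, CCW12, PIR1, PIR3 and CRH1, and SET4, NFT1, FRE5 and PBI1 were named after their values were seen. Positions and sequences come from RefSeq R64, motif searches used exact letters, 1 upstream sequence is not reported here, and sequence matches used blastn 2.17.0.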

Additional observations from a re-analysis of the deposited data

How the results depend on the processing

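Counts below are of members called, out of 8. In wild-type mRNA, 5 were called, but 0 with the replicate block and 1 to 3 with any 1 library left out. In wild-type footprints 4 to 5 and in cth2Δ footprints 4 to 6 of the 7 held without a library. In old footprints between strains, 5 were called lower in cth2Δ when only the groups compared were fitted, as were 4.04% of 5252 genes, against 0. For translational efficiency with age, 1 was called, against 2 without a filter on low counts, 5 with lysate as the replicate block, and 0 to 2 without a library. The labels do not say whether library numbers pair the strains. Differences between replicates 1 and 2 correlated at -0.735 and -0.867 between strains in young mRNA and footprints and at -0.000666 in old footprints, which cannot settle it. With the deletion numbers crossed in young cells, chosen after seeing the data, 7 members were called in each of the 3 age comparisons, 5 in old footprints between strains and 2 in the interaction. Crossing also raised the calls over all genes, to the numbers given in the next paragraph. The member counts have to be read against those.

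Over all genes, wild-type mRNA gave 57 calls, against 260 by DESeq2, 91 with the groups alone and 0 with the replicate block. Wild-type footprints gave 158, against 316 by DESeq2, 74 alone and 46 with the block, and cth2Δ footprints 914, against 164 alone and 252 with the block. Old footprints between strains gave 0, against 22 by DESeq2 and 323 alone. The young footprints gave 0, against 1 by DESeq2, the interaction 0, against 4, and translational efficiency with age 4, against 19 by DESeq2 and 411 with lysate as the block, and between young strains 0, against 4 with it. Crossed numbers gave 1562, 1721 and 2355 calls in the age comparisons of wild-type mRNA, wild-type footprints and cth2Δ footprints, 23 and 51 between young strains, 411 between old footprints and 185 in the interaction.

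Signs turned only for values that were not called. The interaction of DAN4 (-0.04) was 0.0786 by DESeq2, 0.0594 with crossed numbers and -0.61 to 2.92 with 1 library left out, and that of DAN1 (-0.65) was -3.03 to 1.48 with 1 left out. The age difference of CWP1 in footprints was -0.0191 to 0.49 in wild type and -0.28 to 0.14 in cth2Δ with 1 left out, and 0.097 in cth2Δ with crossed numbers. In translational efficiency DAN1 ranged over -2.02 to 3.43 and CWP1 over -0.45 to 0.0723 in the same way. The cause was not tested. Few counts limit DAN1, DAN4, TIR2 and TIR4 in young footprints, and 2 libraries a group limit every test.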
